A study of Mus musculus with 12 samples.

Results

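Plasmablasts were compared with germinal centre (GC) B cells of the same control genotype. The comparison takes the 4 libraries whose labels give Myb control plasmablasts (2 pools) and Myb control GC B cells (2 pools), out of 12 RNA sequencing libraries in the series. The other 8 libraries hold Myb knockout plasmablasts and GC B cells and, from a separate Moz experiment, control and knockout GC B cells, with 2 pools in each group. All 4 control pools came from C57BL/6 mice that carried floxed Myb alleles and no cre (Myb fl/fl), so neither cell type had lost Myb. All mice had been given the hapten-carrier antigen NP-KLH in alum. The GC B cells were sorted on day 12 after this immunisation, from 3 mice (1 male and 2 females) in pool 1 and 2 females in pool 2. The plasmablasts were secondary plasmablasts, sorted on day 5 after a boost with NP-KLH in PBS, from 6 mice (3 males and 3 females) in pool 1 and 7 mice (3 males and 4 females) in pool 2. Pool 1 of the plasmablasts is labelled with 2 experiment dates, and the plasmablast and GC pools share no date, so cell type, date, boost and time after antigen cannot be told apart. The labels do not give the gates of the sorts.

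Plasmablasts are the dividing or recently divided antibody-secreting cells that B cells become after activation. Germinal centres are the sites in lymphoid follicles where activated B cells divide, mutate their antibody genes and are selected with the help of T cells. In the textbook account, Bcl6, Pax5 and Bach2 hold the germinal centre state and repress Prdm1, whose product Blimp-1 in turn represses the B cell programme, while Xbp1 expands the endoplasmic reticulum (ER) so that large amounts of antibody can be folded and exported.

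The control libraries held 8825205 and 8285934 counts in the GC pools and 24775050 and 20103169 in the plasmablast pools, and between 10816 and 11386 genes reached 10 counts in each. Levels are given as TMM CPM, that is, CPM (counts relative to the library total) adjusted by the trimmed mean of M values, a scaling that sets most genes level between libraries. Folds are log2, plasmablasts minus GC B cells, with the standard error (SE). The p-values are those of edgeR's quasi-likelihood test with Benjamini-Hochberg adjustment over 13131 genes. "Past the 2-fold test" means an adjusted p under 0.05 against a fold of 2. Pools of mice are the replicates, so p-values measure the spread between pools, and in bulk RNA fewer cells of a type and less RNA per cell cannot be told apart. Outside the immunoglobulin loci the pools of a group were alike. Of such genes with a mean of at least 10 TMM CPM, 1.82% differed by more than 2-fold between the plasmablast pools and 2.26% between the GC pools. Immunoglobulin genes are not in these shares. The first principal component of the 4 libraries held 91.2% of the variance.

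Short promoter elements recur among listed genes of ER folding, ER to Golgi transport, DNA replication and mitosis. They are shown here first because these groups are described below. The ER stress response element (ERSE) is a CCAAT box followed, after any 9 bases, by CCACG, through which ATF6 and XBP1 are known to act on chaperone genes. It was searched in that form on both strands of the RefSeq promoters (GRCm38.p6, 250 bases before to 50 after the start), of which 9824 matched a tested gene. It lay in 15 of these promoters (0.153%) and in 10 of the 33 promoters found for the ER folding list (30.3%). All 10 of these genes were higher in plasmablasts, as were 35 of the 37 genes of the list with or without the element. The 10 windows follow in order of the fold, read along the gene's strand with 10 bases on each side of the match. Capitals mark CCAAT and CCACG, which read CGTGG and ATTGG where the match is on the opposite strand. Hsp90b1, whose product GRP94 is the main HSP90 chaperone of the ER, holds a match on each strand.
Hsp90b1, log2 6.63, chr10:86705523-86705666, minus strand: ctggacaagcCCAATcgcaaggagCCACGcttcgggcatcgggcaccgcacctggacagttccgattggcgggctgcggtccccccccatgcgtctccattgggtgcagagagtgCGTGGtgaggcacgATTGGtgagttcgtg
Creld2, log2 6.24, chr15:88819510-88819548, plus strand: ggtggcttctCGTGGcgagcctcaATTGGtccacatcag
Derl3, log2 5.40, chr10:75893232-75893270, plus strand: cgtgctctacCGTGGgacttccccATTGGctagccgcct
Dnajc3, log2 4.54, chr14:118937817-118937855, plus strand: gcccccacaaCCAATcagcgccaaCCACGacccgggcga
Hspa5, log2 4.37, chr2:34772015-34772053, plus strand: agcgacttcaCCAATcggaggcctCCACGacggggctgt
Pdia6, log2 3.61, chr12:17266481-17266519, plus strand: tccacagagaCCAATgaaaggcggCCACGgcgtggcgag
Calr, log2 2.92, chr8:84847065-84847103, minus strand: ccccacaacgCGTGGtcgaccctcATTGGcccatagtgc
Ero1b, log2 1.70, chr13:12565672-12565710, plus strand: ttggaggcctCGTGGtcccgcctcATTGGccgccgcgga
Syvn1, log2 1.58, chr19:6046522-6046560, plus strand: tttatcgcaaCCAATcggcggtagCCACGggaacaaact
Canx, log2 1.33, chr11:50325790-50325828, minus strand: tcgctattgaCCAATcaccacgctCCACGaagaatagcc

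The 10 genes encode chaperones (Hsp90b1, Hspa5, Dnajc3, Calr, Canx), oxidoreductases of disulphide bonding (Pdia6, Ero1b, Creld2) and parts of ER-associated degradation (Derl3, Syvn1). Their log2 folds ran from 1.33 to 6.63. Of the 15 matched promoters in all, 10 belonged to genes higher in plasmablasts and 3 to genes lower. The 10 higher genes were the 10 of the ER folding list shown above, so the element did not mark higher genes outside that list. The shorter UPRE, searched as TGACGTGG, lay in 102 promoters (1.04%) and in 5 of the 28 found for the ER to Golgi transport list (17.9%). The ERSE-II, searched as ATTGG and CCACG with any 1 base between them, lay in 8 promoters (0.0814%) and in 2 of the 33 of the ER folding list. Other lists of the secretory route held few matches. The ERSE lay in 0 of the 16 promoters found for translocation into the ER. It lay in 1 of 21 for N-glycosylation and in 0 of 28 for ER to Golgi transport. The UPRE lay in 0 of the 16 and 0 of the 21, and the ERSE-II in 0 promoters of each of these lists.

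The cell cycle genes homology region (CHR), read as TTTGAA, is the element through which DREAM and MuvB complexes are known to act on genes of mitosis. It lay in 1426 of the 9824 promoters (14.5%) and in 21 of the 30 found for the G2 and mitosis list (70%). All 21 of these genes were lower in plasmablasts, as were 35 of the 36 genes of the list with or without the element. Over all 1426 promoters with the element, 496 belonged to genes lower in plasmablasts and 302 to genes higher (median log2 fold -0.34). In 19 of the 21 the element began within 50 bases of the start, and Kif2c and Mki67 were the exceptions. Of the windows that lie before the start, 4 are shown with 15 bases on each side. The element begins 103 bases before the start in Kif2c, 98 in Mki67, 29 in Ube2c and 23 in Top2a. Capitals mark the element, which reads TTCAAA on the opposite strand.
Kif2c, log2 -4.46, chr4:117178855-117178890, minus strand: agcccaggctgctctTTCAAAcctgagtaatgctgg
Top2a, log2 -3.65, chr11:99024192-99024227, minus strand: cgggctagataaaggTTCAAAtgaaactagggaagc
Ube2c, log2 -3.36, chr2:164769885-164769920, plus strand: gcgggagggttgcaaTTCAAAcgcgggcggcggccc
Mki67, log2 -1.73, chr7:135716457-135716492, minus strand: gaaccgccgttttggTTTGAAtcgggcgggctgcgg

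The E2F site TTTGGCGC lay in 112 promoters (1.14%) and in 6 of the 30 found for the DNA replication list (20%). Of the genes of those 112 promoters, 46 were lower and 12 higher in plasmablasts, and the 6 of the list were lower like all 39 of its genes. These matches describe the letters of the promoters, and binding of a factor was not measured.

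Of 13131 genes, 3289 (25%) were higher in plasmablasts and 3695 (28.1%) were lower, and 1995 (15.2%) and 1725 (13.1%) were past the 2-fold test. These shares are the background for each count of list members below. Outside the immunoglobulin loci, the pools of the groups did not overlap for 9698 of 12881 genes (75.3%), the background for each statement below that groups do not overlap. Of the 250 immunoglobulin genes tested, 245 were higher and 0 were lower (edgeR's quasi-likelihood test), with a median log2 fold of 7.29. Among the 12881 other genes, 3044 were higher and 3695 lower, 1750 and 1725 past the 2-fold test. Fitted folds over 64 were reached by 195 of these on the higher side and 163 on the lower side. With the immunoglobulin genes left out before scaling, 3389 of 12224 genes (27.7%) were higher and 3322 (27.2%) lower. Without TMM scaling, so that each gene is a share of all counts, 1108 genes were higher and 9877 lower, since the median gene then is at -2.04 on the log2 scale, against -0.17 with TMM. Directions below are relative to the typical gene, and a gene with a log2 fold well under 2 is a smaller share of all plasmablast counts even where it is listed as higher. In all, 6147 genes passed in neither direction, and 147 of the tested genes had a 95% interval wholly within 0.5 of 0 on the log2 scale.

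**Figure D1:**
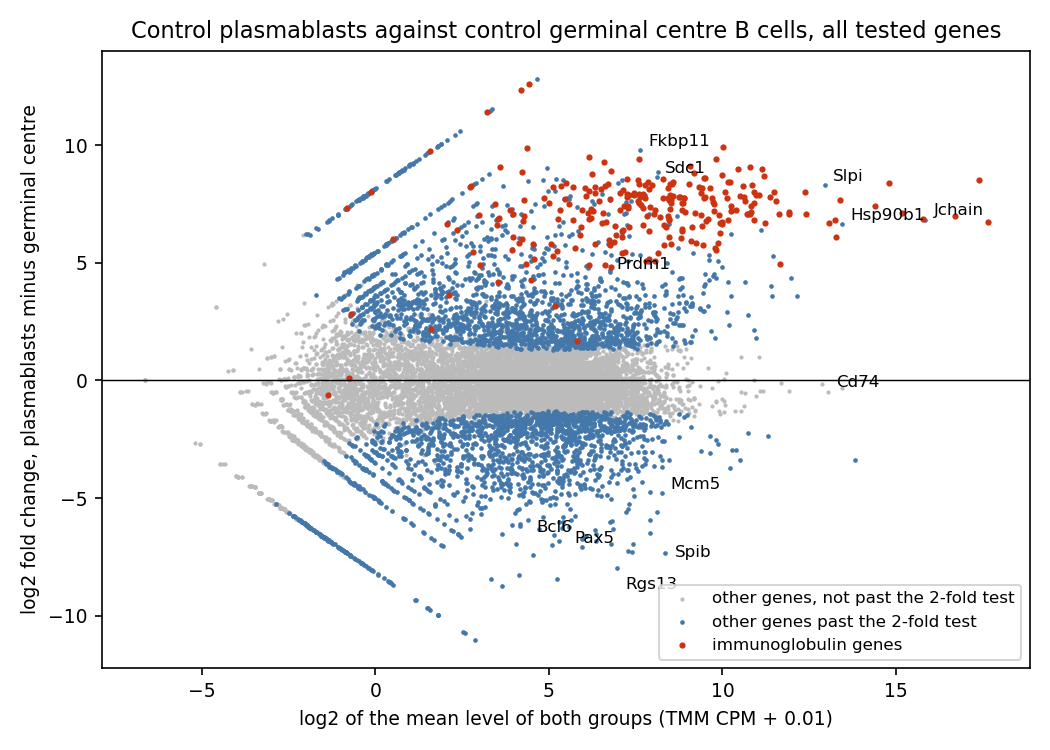
Log2 fold change (y axis, plasmablasts minus germinal centre B cells) of the 13131 tested genes against the log2 mean level of both groups (x axis, TMM CPM + 0.01). Each point is a gene. Red points are the 250 immunoglobulin genes, which sit mostly between 5 and 10, and blue points are other genes past the 2-fold test.

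Immunoglobulin genes took 1.59% and 1.81% of all counts in the GC pools and 65% and 68.4% in the plasmablast pools. Constant genes of the heavy chain alone took 0.839% and 0.844% in the GC pools and 36.1% and 38.4% in the plasmablast pools. The kappa constant gene took 0.24% and 0.288% in GC B cells and 7.91% and 9.89% in plasmablasts. Variable, diversity and joining segments of the heavy chain held 4.78% and 3.56% of plasmablast counts, kappa segments 6.2% and 5.83%, and lambda segments 4.76% and 4.32%. No share of a plasmablast pool overlapped that of a GC pool. With 95% Wilson intervals, counting error of shares of all counts, or of counts outside the immunoglobulin genes, was at most 0.0301 percentage points. The spread between pools was the larger error for some shares and the smaller for others. For heavy chain constant genes in plasmablasts, the SD between pools was 1.63 percentage points, above the counting errors of 0.0189 and 0.0213. In GC B cells the SD for these genes was 0.00354, below the counting errors of 0.00602 and 0.00623. These intervals cover counting error only.

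**Figure D2:**
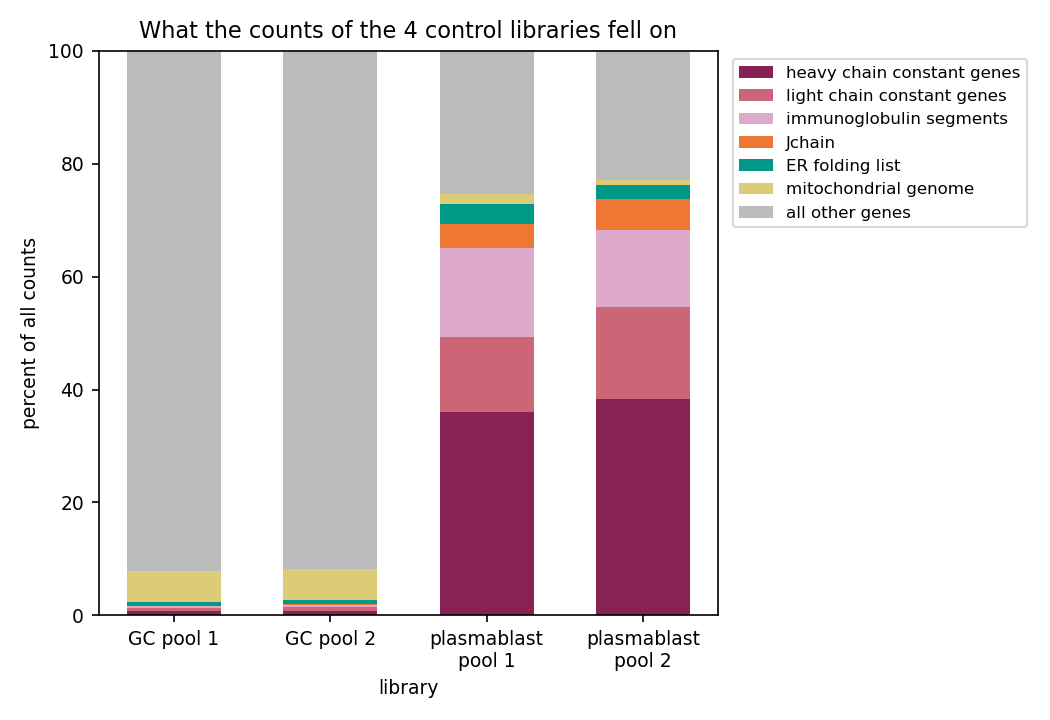
Percent of all counts (y axis) in each of the 4 control libraries (x axis), stacked by class of gene. Immunoglobulin classes fill 65% and 68.4% of the plasmablast bars and 1.59% and 1.81% of the GC bars. The ER folding list and Jchain are the visible blocks above them in plasmablasts.

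The classes of heavy chain differed in their shares. Of counts on heavy chain constant genes, Ighm, which encodes the IgM chain, held 68.7% and 69.9% in the GC pools and 49.5% and 42.3% in the plasmablast pools. Ighg1, the IgG1 chain typical of responses to protein in alum, held 17.5% and 16.9% in GC B cells and 36.5% and 40.7% in plasmablasts. Igha, the IgA chain, held 3.82% and 2.5% in GC B cells and 5.11% and 7.52% in plasmablasts. So the Ighm share was lower, and the Ighg1 and Igha shares higher, in both plasmablast pools than in either GC pool. The other switched classes did not follow Ighg1 as a group. Ighg3 held 3.23% and 2.9% in GC B cells and 1.32% and 2.43% in plasmablasts, and Ighe, the IgE chain, held 0.238% and 0.174% against 0.125% and 0.084%, so both shares were lower in plasmablasts. Ighg2b overlapped, at 4.21% and 5.03% against 4.92% and 4.68%, and Ighg2c was at 1.6% and 2.28% against 2.5% and 2.29%. Ighd, the IgD chain of naive cells, held 0.713% and 0.283% in the GC pools against 0.000883% and 0.0169% in the plasmablast pools. The level of Ighd outside this share was 36.9 and 16 TMM CPM in the GC pools and 7.09 and 164 in the plasmablast pools, and these groups overlap (log2 1.68, SE 1.14, edgeR adjusted p = 0.237). Both plasmablast pools were lower than both GC pools in the share while pool 2 was the highest of the 4 in level.

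On the TMM scale, Ighm was at 3555 and 3944 in the GC pools and at 398180 and 410470 in the plasmablast pools (log2 6.75, SE 0.43, edgeR adjusted p = 2.86e-07). Ighg1 was at 904 and 954 in GC B cells and at 293260 and 394500 in plasmablasts (log2 8.53, SE 0.50). A TMM CPM is not a share of the library here, because the factors of 0.45 and 0.396 make the plasmablast libraries count as smaller than they are. The lambda chain, which the response of C57BL/6 mice to NP is known to favour, held 43% and 48.3% of light chain constant counts in the GC pools and 39.8% and 39% in the plasmablast pools. Ighv1-72 is the segment known as V186.2 that typifies anti-NP heavy chains in this strain, and it held 0.38% and 0.392% of heavy chain segment counts in plasmablasts. In the GC pools the share was 0.187% and 0.217%, from 13 and 14 counts (Wilson 95% intervals 0.11% to 0.321% and 0.129% to 0.364%). Both plasmablast shares lay above both GC shares. The intervals cover counting error only and not the spread between pools, and the difference between the groups was not tested. Near-identical segments may share reads, so counts of 1 segment are uncertain. Immunoglobulin genes were chosen for description after their values were seen.

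Among 12 transcription factors of plasma cells, 8 were higher in plasmablasts (all 8 past the 2-fold test), 2 were lower, and the median log2 fold was 2.53 (without scaling 5 higher and 4 lower). Prdm1, which encodes Blimp-1 and whose loss prevents antibody secretion, was at 3.21 and 4.03 TMM CPM in the GC pools and at 237 and 173 in the plasmablast pools (log2 5.82, SE 0.38, edgeR adjusted p = 3.28e-07). Xbp1, the factor that expands the secretory system, was at 111 and 168 in GC B cells and at 5226 and 5661 in plasmablasts (log2 5.29, SE 0.35). Irf4, which is needed for plasma cells and acts by dose, was at 37.4 and 34.4 in GC B cells and at 692 and 538 in plasmablasts (log2 4.10, SE 0.29). In each of these genes the lowest plasmablast pool was over 10 times the highest GC pool. Bhlha15, which encodes Mist1, a factor of secretory cells, was at 1.61 and 1.69 in GC B cells and at 328 and 330 in plasmablasts (log2 7.63, SE 0.29, edgeR adjusted p = 8e-08). Creb3l2, a membrane-bound factor cut in the Golgi that drives ER to Golgi transport genes, was at 1.68 and 1.37 in GC B cells and at 380 and 210 in plasmablasts (log2 7.59, SE 0.63). Both were near the floor of the GC libraries. Ikzf1, which encodes the lymphoid factor Ikaros, went the other way, from 553 and 570 to 244 and 227 (log2 -1.26, SE 0.21, edgeR adjusted p = 0.000438). Pou2af1, the coactivator OCA-B, was at 1470 and 2027 in GC B cells and at 1189 and 1307 in plasmablasts (log2 -0.49, SE 0.29, edgeR adjusted p = 0.18). Zbtb20 was low in both, at 13.3 and 7.74 against 18.3 and 8.53, with overlapping groups (log2 0.36, SE 0.48), and its log2 fold is -1.50 without scaling.

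Factors of the B cell and germinal centre state were lower as a group: 19 of 22 fell below GC B cells, 17 past the 2-fold test, and 0 were higher (median -2.55, edgeR's quasi-likelihood test). Pax5, the factor that commits cells to the B lineage, was at 276 and 344 TMM CPM in the GC pools and at 1.98 and 2.13 in the plasmablast pools (log2 -7.24, SE 0.39, edgeR adjusted p = 1.17e-07). Spib, an ETS factor of B cells, was at 562 and 731 in GC B cells and at 3.86 and 4.27 in plasmablasts (log2 -7.32, SE 0.33). Bcl6, the repressor that defines germinal centres, was at 139 and 127 in GC B cells and at 1.8 and 0.753 in plasmablasts (log2 -6.63, SE 0.40). All 3 were nearly absent from both plasmablast pools, while each was above 100 in both GC pools. Bach2, a repressor of Prdm1, was at 223 and 222 against 3.14 and 4.02 (log2 -5.97, SE 0.27). Ciita, the master activator of MHC class II, was at 277 and 159 against 2.25 and 1.13 (log2 -6.96, SE 0.49). Not every factor of this list moved so far. Mef2c was at 352 and 369 in GC B cells and at 321 and 273 in plasmablasts (log2 -0.28, SE 0.22, edgeR adjusted p = 0.313). Myb itself, the gene floxed in these mice, was at 14 and 11.5 in GC B cells and at 4.13 and 4.64 in plasmablasts (log2 -1.55, SE 0.26, edgeR adjusted p = 0.00039).

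E proteins are helix-loop-helix factors of the B lineage, and Id proteins inhibit them by pairing with them. Of the 5 tested members of the 6 listed, 2 were higher and 3 lower. Id3 was at 63.4 and 75.8 TMM CPM in the GC pools and at 0.718 and 0.753 in the plasmablast pools (log2 -6.55, SE 0.37, edgeR adjusted p = 1.56e-07). Id2 was at 6.5 and 7.34 against 3.59 and 2.51 (log2 -1.16, SE 0.28, edgeR adjusted p = 0.00479). Both inhibitors were therefore lower in plasmablasts. Tcf12, which encodes the E protein HEB, was higher, at 130 and 106 against 44 and 37.2 in GC B cells (log2 1.54, SE 0.25, edgeR adjusted p = 0.000276), and turns to -0.34 without scaling.

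**Figure D3:**
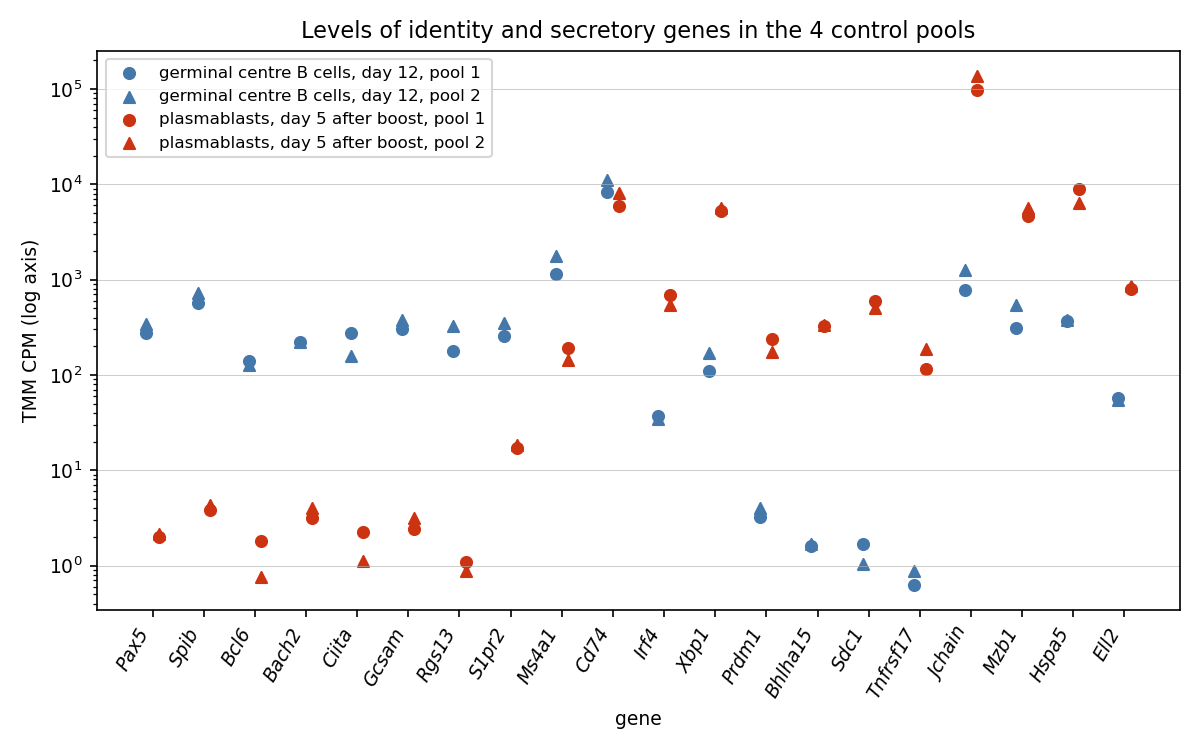
TMM CPM (y axis, log axis) of 20 genes (x axis) in each of the 4 control pools. Blue points are the GC pools and red points the plasmablast pools. Genes from Pax5 to Ms4a1 are higher in both GC pools, Cd74 is close in all 4 pools, and genes from Irf4 to Ell2 are higher in both plasmablast pools.

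Genes that define germinal centre B cells were lower in plasmablasts for 14 of 14 list members, 13 past the 2-fold test (median -4.49), and their summed share of counts outside the immunoglobulin genes was 0.466 ± 0.00141% in GC B cells and 0.0357 ± 0.000354% in plasmablasts (SD, n = 2 pools). Counting error was larger than these SDs, at 0.00454 and 0.00467 percentage points in the GC pools and 0.00126 and 0.00146 in the plasmablast pools. By these shares, the labelled GC pools held more of these markers than the plasmablast pools. The list was chosen with earlier results of these data known, so this is no independent check of the labels. Rgs13, a brake on chemokine receptor signals, was at 179 and 323 TMM CPM in the GC pools and at 1.08 and 0.879 in the plasmablast pools (log2 -7.97, SE 0.49, edgeR adjusted p = 2.41e-07). Gcsam, a signalling adaptor named for its germinal centre expression, was at 306 and 376 against 2.42 and 3.14 (log2 -6.95, SE 0.33). S1pr2, the sphingosine phosphate receptor that holds cells in the follicle, was at 258 and 350 against 17.2 and 18.4 (log2 -4.09, SE 0.27). S1pr2 kept a low but measured level in both plasmablast pools, above that of the other named members of the list.

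Of 15 genes of the machinery of somatic mutation and class switching, 12 were lower, 0 higher and 3 did not pass (median -1.92). Exo1, the exonuclease of mismatch repair, was at 29.2 and 27.9 TMM CPM in the GC pools and at 1.89 and 2.26 in the plasmablast pools (log2 -3.79, SE 0.23, edgeR adjusted p = 2.04e-07). Apex1, which cuts abasic sites in base excision repair, was at 15.2 and 19.4 against 0.988 and 1.63 (log2 -3.76, SE 0.29). Trp53bp1, a repair factor needed for switching, was at 52.8 and 37.5 against 35.4 and 30.9 (log2 -0.45, SE 0.24, edgeR adjusted p = 0.135).

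All 19 genes of plasma cell surface and products were higher in plasmablasts, 18 of them past the 2-fold test, with a median of 4.81 (16 of 19 without scaling, 0 lower). Sdc1, the heparan sulphate proteoglycan CD138 used to identify plasma cells, was at 1.68 and 1.05 TMM CPM in the GC pools and at 595 and 502 in the plasmablast pools (log2 8.63, SE 0.49, edgeR adjusted p = 1.63e-07). Ly6c2, a small lipid-anchored surface protein, was at 1.05 and 1.37 against 520 and 616 (log2 8.88, SE 0.45), although near-identical Ly6 genes may share its reads. Cd28, the costimulatory receptor of T cells that plasma cells also carry, was at 1.12 and 0.967 against 218 and 213 (log2 7.68, SE 0.42). These surface genes were close to the floor in both GC pools and above 200 in both plasmablast pools. Tnfrsf17, the survival receptor BCMA, was at 0.629 and 0.887 against 114 and 189 (log2 7.64, SE 0.54). Cd27 was low throughout, at 0.699 and 0.322 against 1.53 and 2.89 (log2 2.06, SE 0.64, edgeR adjusted p = 0.0183), and did not pass without GC pool 2 or without plasmablast pool 2 (edgeR adjusted p = 0.122 to 0.133).

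Jchain, the chain that joins IgM and IgA into polymers, was the most abundant gene outside the immunoglobulin loci in plasmablasts. It was at 770 and 1266 TMM CPM in the GC pools and at 97472 and 136110 in the plasmablast pools (log2 6.84, SE 0.47, edgeR adjusted p = 4.48e-07). That was 12.5% and 17.1% of plasmablast counts outside the immunoglobulin genes. Slpi, a secreted inhibitor of leukocyte proteases, was at 41.7 and 59.2 against 12695 and 18924 (log2 8.29, SE 0.51). Mzb1, an ER cochaperone of the IgM chain, was at 311 and 539 against 4605 and 5662 (log2 3.59, SE 0.44). Per kilobase of gene length in the authors' deposited table, mean plasmablast levels in TMM CPM per kb were 664790 for Igkc, 349810 for Iglc1, 271180 for Ighm, 232660 for Ighg1, 55563 for Jchain and 18048 for Slpi. Igkc and Iglc1 thus stood above Ighm and Ighg1 per length, and Jchain stood below these 4 genes and above Igha, at 46518.

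Genes of ER folding and the unfolded protein response were higher in plasmablasts for 35 of 37 list members, 33 past the 2-fold test, with 0 lower and a median of 3.61. Their summed share of counts outside the immunoglobulin genes was 0.654 ± 0.0226% in GC B cells and 8.97 ± 1.12% in plasmablasts (SD, n = 2 pools). Without scaling, 28 were higher and 3 lower, and with immunoglobulin genes left out 37 of 37 were higher. Hsp90b1, whose promoter holds both ERSE matches shown above, was at 243 and 203 TMM CPM in the GC pools and at 23913 and 20256 in the plasmablast pools (log2 6.63, SE 0.47, edgeR adjusted p = 5.05e-07). Hspa5, which encodes BiP, the chaperone that binds unassembled heavy chains, was at 368 and 376 against 9027 and 6318 (log2 4.37, SE 0.34). Pdia4, a disulphide isomerase, was at 52.9 and 51.3 against 5189 and 3580 (log2 6.40, SE 0.44). The lowest plasmablast value of each of these 3 genes was over 15 times the highest GC value. Fkbp11, a prolyl isomerase of secretory cells, had the largest fold of the list, from 0.699 and 0.161 to 324 and 469 (log2 9.78, SE 0.56, edgeR adjusted p = 1.74e-07).

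The members of this list that did not pass were a disulphide reductase and a sensor. Dnajc10, the reductase ERdj5, was at 94.9 and 125 TMM CPM in the GC pools and at 153 and 159 in the plasmablast pools (log2 0.50, SE 0.25, edgeR adjusted p = 0.107). Eif2ak3, which encodes the ER stress sensor PERK, was at 134 and 119 against 176 and 156 (log2 0.40, SE 0.20, edgeR adjusted p = 0.112). Both were a little above GC B cells in both pools, and both were below them without scaling (log2 -1.37 and -1.48).

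In the integrated stress response and amino acid supply, the branch that PERK and other kinases feed, 11 of 18 genes were higher and 3 lower (median 1.24), against 3 higher and 9 lower without scaling. Slc3a2, the heavy subunit of amino acid transporters (CD98), was at 60.6 and 76.3 TMM CPM in the GC pools and at 1954 and 1952 in the plasmablast pools (log2 4.83, SE 0.26, edgeR adjusted p = 1.27e-07). Atf5, a target and relative of ATF4, was at 9.43 and 11.9 against 99.9 and 128 (log2 3.42, SE 0.25). Chac1, an enzyme that breaks down glutathione, was at 1.47 and 2.9 against 19.4 and 23.2 (log2 3.29, SE 0.37). Psat1, an enzyme of serine synthesis, was lower, at 153 and 259 against 43.5 and 53.3 (log2 -2.09, SE 0.35, edgeR adjusted p = 0.000348).

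All 22 genes of translocation into the ER were higher in plasmablasts, 19 past the 2-fold test (median 2.74), whereas without scaling 11 were higher and 2 lower. Ssr4, a subunit of the translocon-associated complex, was at 43.1 and 63.9 TMM CPM in the GC pools and at 1549 and 2060 in the plasmablast pools (log2 5.08, SE 0.34, edgeR adjusted p = 3.97e-07). Sec11c, a catalytic subunit of signal peptidase, was at 69.2 and 94.8 against 1064 and 1582 (log2 4.01, SE 0.35). Spcs1, another signal peptidase subunit, was at 37.5 and 59.3 against 506 and 717 (log2 3.66, SE 0.36). The 3 genes were at least 8 times higher in each plasmablast pool than in either GC pool.

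Of 26 genes of N-glycosylation, which adds and trims sugar chains on proteins in the ER, 22 were higher and 1 was lower (median 2.08). Without scaling this splits into 8 higher and 8 lower. Alg2, a mannosyltransferase of the lipid-linked sugar, was at 8.24 and 8.63 TMM CPM in the GC pools and at 131 and 118 in the plasmablast pools (log2 3.88, SE 0.21, edgeR adjusted p = 1.41e-07). Ddost, a subunit of the oligosaccharyltransferase, was at 80.5 and 116 against 1284 and 1316 (log2 3.72, SE 0.35), and Rpn1, a further subunit, was at 134 and 172 against 1340 and 1402. The subunits thus differed by similar amounts. Tusc3, an alternative subunit of the same enzyme, was the member that was lower, at 15.6 and 26 against 8.26 and 9.16 (log2 -1.25, SE 0.29, edgeR adjusted p = 0.00374).

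Of 33 genes of ER to Golgi transport, 29 were higher and 0 lower (median 2.02), and without scaling 12 were higher and 6 lower. Kdelr3, a receptor that returns escaped ER proteins, was at 0.21 and 0.322 TMM CPM in the GC pools and at 19.6 and 17.4 in the plasmablast pools (log2 6.10, SE 0.45, edgeR adjusted p = 6.62e-07). Sec24d, a cargo adaptor of COPII coats, was at 7.96 and 7.9 against 394 and 262 (log2 5.37, SE 0.41). Arfgap3, a regulator of Golgi coats, was at 9.85 and 8.46 against 185 and 161 (log2 4.24, SE 0.23). For each step of the secretory route, from translocation to folding, sugar addition and transport, the share of listed genes higher in plasmablasts stood above the 25% of all tested genes. These lists were chosen with earlier results of these data known, so the comparison describes the listed genes and is no independent check of the route.

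**Figure D4:**
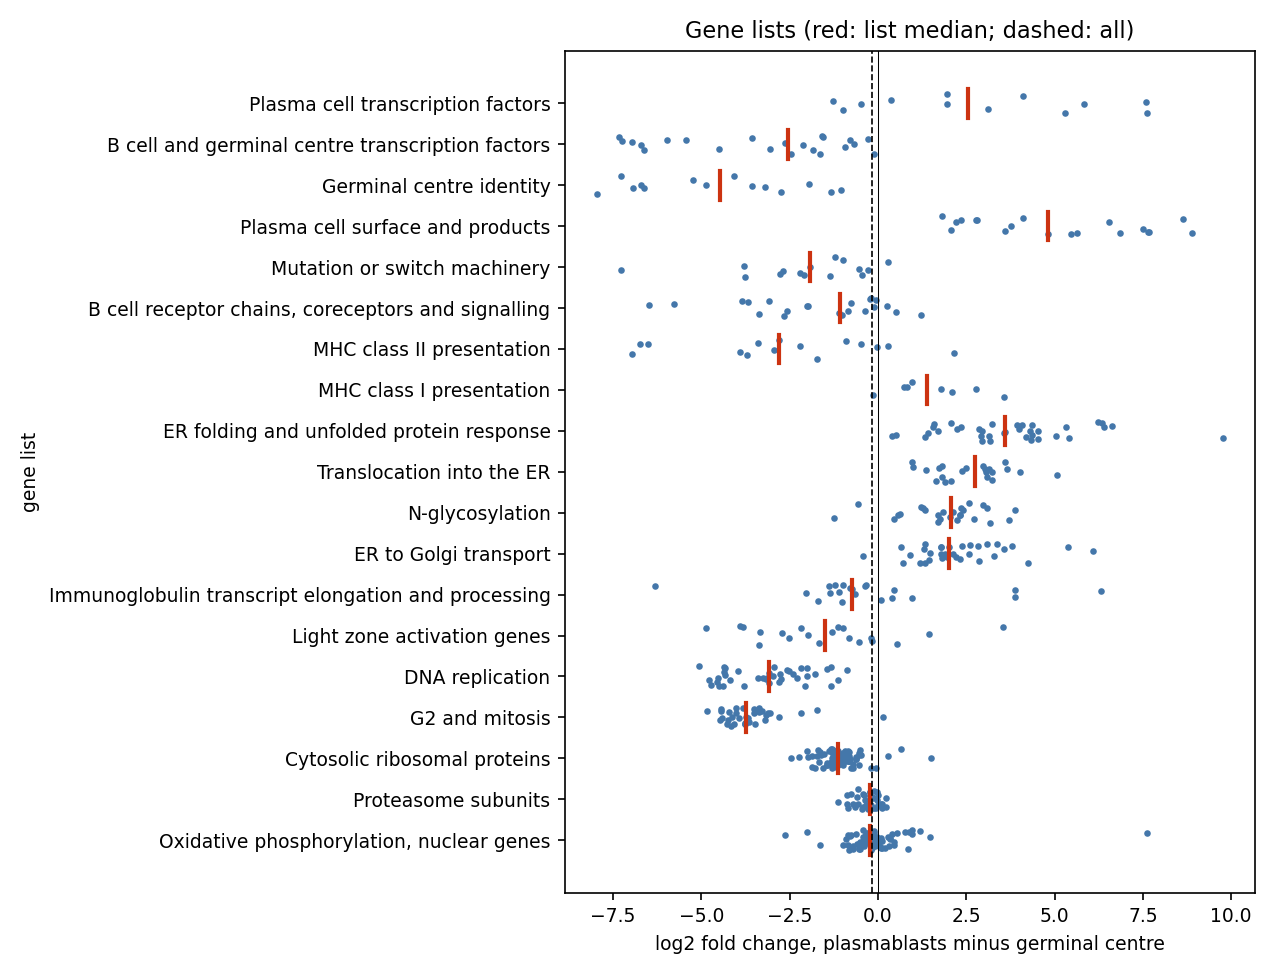
Log2 fold changes (x axis, plasmablasts minus germinal centre B cells) of the tested members of 19 gene lists (y axis). Each point is a gene, the red bar is the median of the list and the dashed line the median of all 13131 genes (-0.17). The lists of the secretory route lie to the right of the dashed line, and the lists of germinal centre identity, DNA replication and mitosis lie to the left.

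Plasma cells switch heavy chain transcripts from the membrane to the secreted form by use of an early polyA site. Of 21 genes of elongation and transcript processing, 4 were higher and 12 lower (median -0.75). Ell2, the elongation factor known to favour the secreted form, was at 57.1 and 54 TMM CPM in the GC pools and at 790 and 854 in the plasmablast pools (log2 3.89, SE 0.24, edgeR adjusted p = 2.53e-07). Hnrnpll, a splicing regulator of lymphocytes, was at 0.279 and 0.403 against 27.6 and 27.4 (log2 6.32, SE 0.39). Ell3, a relative of Ell2 found in germinal centre B cells, was at 53.6 and 49.6 against 0.359 and 1 (log2 -6.32, SE 0.38). The 2 members of the ELL family named here therefore lay in opposite directions, with no overlap in either.

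Genes of MHC class II presentation, through which B cells show antigen to T cells, were lower for 11 of 15 members and higher for 1 (median -2.79). H2-Oa, a chain of the peptide-loading inhibitor H2-O, was at 102 and 144 TMM CPM in the GC pools and at 1.26 and 1 in the plasmablast pools (log2 -6.74, SE 0.31, edgeR adjusted p = 8e-08). H2-DMb2, a chain of the peptide exchange factor, was at 143 and 179 against 1.44 and 2.13 (log2 -6.52, SE 0.35). H2-Ab1, a chain of the class II molecule itself, was at 2368 and 3209 against 531 and 670 (log2 -2.22, SE 0.32). The loading factors were thus nearly absent, and the presenting chain was still clearly measured in both plasmablast pools. Cd74, the invariant chain that escorts class II molecules, was at 8342 and 11089 against 5919 and 8146 (log2 -0.47, SE 0.32, edgeR adjusted p = 0.239), and its groups did not overlap. Ctss, the protease that cuts Cd74, was the member that was higher, at 838 and 1085 against 176 and 261 (log2 2.14, SE 0.27, edgeR adjusted p = 4.45e-05).

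Class I presentation differed in direction from class II, with 6 of 8 genes higher and 0 lower (median 1.37), although without scaling 2 were higher and 3 lower. B2m, the light chain of class I molecules, was at 548 and 854 TMM CPM in the GC pools and at 7374 and 9268 in the plasmablast pools (log2 3.57, SE 0.35, edgeR adjusted p = 5.52e-06). H2-K1 was at 405 and 472 against 2588 and 3430 (log2 2.78, SE 0.30), and H2-D1 was at 292 and 326 against 1227 and 1396. These are the classical class I heavy chains of this strain, and reads may be shared among related H2 genes. Tap1, a subunit of the peptide transporter, was level at 214 and 213 against 195 and 191 (log2 -0.14, SE 0.19, edgeR adjusted p = 0.542).

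Among 22 B cell receptor chains, coreceptors and signalling genes, 14 were lower and 1 was higher (median -1.07). Cd22, an inhibitory lectin, was at 583 and 363 TMM CPM in the GC pools and at 4.85 and 5.77 in the plasmablast pools (log2 -6.48, SE 0.41, edgeR adjusted p = 2.68e-07). Cd72, another inhibitory receptor, was at 60 and 52.8 against 0.629 and 1.51 (log2 -5.79, SE 0.39). Ms4a1, which encodes CD20, was at 1135 and 1755 against 192 and 145 (log2 -3.10, SE 0.34). Ms4a1 was thus lower but remained well measured in both plasmablast pools, unlike Cd22 and Cd72. Cd81, a tetraspanin of the coreceptor complex, was the member that was higher, at 307 and 367 against 119 and 172 (log2 1.21, SE 0.27, edgeR adjusted p = 0.00281), and turns to -0.67 without scaling. Btk, the kinase below the receptor, was at 142 and 124 against 114 and 118 (log2 -0.20, SE 0.18, edgeR adjusted p = 0.348).

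Receptors that guide B cells differed by ligand. Of 17 chemokine, sphingosine phosphate and oxysterol receptors and their regulators, 3 were higher and 10 lower (median -1.20). Cxcr5, which draws cells into follicles, was at 199 and 255 TMM CPM in the GC pools and at 2.42 and 3.26 in the plasmablast pools (log2 -6.33, SE 0.28, edgeR adjusted p = 8e-08). Ccr7, which draws cells to the T zone, was at 10.3 and 6.05 against 0.18 and 0.251 (log2 -5.24, SE 0.80). Ccr10, a mucosal homing receptor, was higher, at 16.6 and 25.4 against 0.419 and 0.645 (log2 5.29, SE 0.44, edgeR adjusted p = 1.55e-06). Other receptors did not pass. Cxcr4, which draws plasma cells to bone marrow and marks dark zone cells, was at 147 and 195 in GC B cells and at 222 and 250 in plasmablasts (log2 0.46, SE 0.25, edgeR adjusted p = 0.136), and is -1.42 without scaling. S1pr1, which directs exit from lymphoid tissue, was at 25.7 and 20.9 against 25.8 and 19.6, with overlapping groups (log2 -0.04, SE 0.28). Gpr183, the oxysterol receptor EBI2, was at 10.1 and 11.2 against 8.53 and 9.04 (log2 -0.28, SE 0.24).

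Of 12 integrins and selectin genes, 5 were higher and 2 lower (median 0.78), against 1 higher and 6 lower without scaling. Selplg, the selectin ligand PSGL-1, was at 4.75 and 4.27 TMM CPM in the GC pools and at 98.6 and 162 in the plasmablast pools (log2 4.85, SE 0.39, edgeR adjusted p = 1.35e-06). Itga4, the alpha chain of VLA-4, was at 75.4 and 55.2 against 590 and 321 (log2 2.80, SE 0.40), and Itgal, the alpha chain of LFA-1, was at 146 and 136 against 817 and 626. Itga6, a laminin receptor chain, was lower, at 10.4 and 11.4 against 3.32 and 2.13 (log2 -1.97, SE 0.42, edgeR adjusted p = 0.00184).

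Receptors for cytokines, TNF family ligands and antibody moved in both directions, against 25% higher and 28.1% lower of all tested genes. Of 19 cytokine receptors, 9 were higher, 8 were lower and 2 did not pass (median 0.26), so both shares stood above those of all tested genes. Il13ra1, a chain that pairs with Il4ra, was at 0.279 and 0.161 TMM CPM in the GC pools and at 79.5 and 89.5 in the plasmablast pools (log2 8.51, SE 0.41, edgeR adjusted p = 8.05e-08). Il4ra, the interleukin 4 receptor chain, was at 179 and 175 against 5.39 and 6.53 (log2 -4.90, SE 0.22). The partner chains were thus on opposite sides. Il6st, the gp130 chain shared by receptors of the interleukin 6 family, was at 3.91 and 3.14 against 182 and 113 (log2 5.38, SE 0.43). Of 14 TNF family receptors, 6 were higher and 3 lower. Tnfrsf1a, the receptor TNFR1, was at 0.349 and 0 against 6.11 and 8.28. Cd40, the receptor for T cell help, was at 50.6 and 48.8 against 2.51 and 4.52 (log2 -3.85, SE 0.28). Of 10 Fc receptors and relatives, 2 were higher and 3 lower, near the shares over all tested genes. Fcer2a, which encodes CD23, was at 210 and 215 against 2.25 and 4.39 (log2 -6.03, SE 0.35), and Fcmr, the receptor for IgM, was at 243 and 308 against 37.2 and 53.1. Fcer1g, the shared gamma chain of Fc receptors, was at 2.51 and 0.967 against 12.4 and 18.6 (log2 3.12, SE 0.47, edgeR adjusted p = 0.000165).

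The BCL2 family sets whether cells die through mitochondria. Of 16 tested members of the 18 listed, 5 were higher, 5 lower and 6 did not pass, near the 25% higher and 28.1% lower of all tested genes. Bcl2l2, the survival protein BCL-W, was at 3.14 and 2.58 TMM CPM in the GC pools and at 27.6 and 37.8 in the plasmablast pools (log2 3.50, SE 0.27, edgeR adjusted p = 1.01e-06). Bcl2 was at 9.08 and 3.71 against 41.6 and 42.9 (log2 2.71, SE 0.56, edgeR adjusted p = 0.00155). Mcl1, on which plasma cells are known to depend, was at 284 and 350 against 615 and 641 (log2 0.99, SE 0.22, edgeR adjusted p = 0.00268), and is -0.89 without scaling. Bcl2a1b, the survival protein A1, was lower, at 24 and 39.1 against 3.23 and 3.51 (log2 -3.23, SE 0.30), with near-identical Bcl2a1 copies that may share reads. Bax, a pore-forming killer, was at 50.6 and 63.4 against 34.8 and 51.1, and its groups overlapped (log2 -0.41, SE 0.28).

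Genes that mark activated light zone B cells were lower for 15 of 20 members and higher for 2 (median -1.49). Slamf1, a receptor of lymphocyte contacts, was at 51.8 and 48.5 TMM CPM in the GC pools and at 1.35 and 2.13 in the plasmablast pools (log2 -4.88, SE 0.25, edgeR adjusted p = 1.03e-07). Rel, the NF-kB subunit c-Rel, was at 30.9 and 31 against 2.69 and 1.26 (log2 -3.92, SE 0.41). Cd83 was at 246 and 320 against 15.5 and 24.6 (log2 -3.82, SE 0.30). Myc, which Blimp-1 is known to repress, was at 44.8 and 38.1 against 12.7 and 13.2 (log2 -1.68, SE 0.25, edgeR adjusted p = 0.000154). Ccnd2, a cyclin D, was the member furthest in the other direction, at 299 and 285 against 24.9 and 25.6 (log2 3.53, SE 0.27).

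All 39 genes of DNA replication were lower in plasmablasts, 35 past the 2-fold test, with a median of -3.08. Mcm5, a subunit of the replicative helicase, was at 540 and 639 TMM CPM in the GC pools and at 18.8 and 24 in the plasmablast pools (log2 -4.79, SE 0.29, edgeR adjusted p = 2.41e-07). Mcm3, its partner, was at 418 and 511 against 17.4 and 17.7 (log2 -4.73, SE 0.30). Chaf1b, which loads histones behind the fork, was at 60.1 and 58 against 1.35 and 2.26 (log2 -5.07, SE 0.29). The helicase genes stayed measurable, above 15 in both plasmablast pools. The share of the whole list in counts outside the immunoglobulin genes was 0.901 ± 0.0339% in GC B cells and 0.0905 ± 0.00891% in plasmablasts (SD, n = 2 pools).

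Of 36 genes of G2 and mitosis, 35 were lower and 0 higher (median -3.75, edgeR's quasi-likelihood test). Kif23, a kinesin of cell division, was at 122 and 88.3 TMM CPM in the GC pools and at 3.59 and 3.77 in the plasmablast pools (log2 -4.84, SE 0.25, edgeR adjusted p = 1.03e-07). Kif2c, a kinesin that shortens microtubules and whose promoter element is shown above, was at 60.2 and 47.2 against 2.07 and 2.89 (log2 -4.46, SE 0.32). Plk1, the mitotic kinase, was at 112 and 113 against 5.21 and 5.15 (log2 -4.44, SE 0.31). Mki67, the proliferation marker Ki-67, differed less, at 957 and 341 against 229 and 162 (log2 -1.73, SE 0.48, edgeR adjusted p = 0.00961). It did not pass without GC pool 1 or without plasmablast pool 2 (edgeR adjusted p = 0.0676 to 0.148). Pttg1, which encodes securin, was the member that did not pass, at 13.3 and 16.2 against 11.1 and 21.5 (log2 0.13, SE 0.47). The summed share of the list was 0.714 ± 0.141% of counts outside the immunoglobulin genes in GC B cells and 0.0661 ± 0.00325% in plasmablasts.

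Cyclins D and their kinases and inhibitors were mixed, with 7 of 15 higher and 5 lower, against 25% and 28.1% of all tested genes. Ccnd3, the cyclin D known to be needed for germinal centres, was at 193 and 229 TMM CPM in the GC pools and at 28.4 and 30.2 in the plasmablast pools (log2 -2.85, SE 0.28, edgeR adjusted p = 5.31e-06). With the Ccnd2 values above, the 2 cyclins were opposite: Ccnd3 stood above Ccnd2 in GC B cells per kb (93.4 against 4.38 TMM CPM per kb) and below it in plasmablasts (13 against 50.6). Cdk6, their kinase partner, was at 4.68 and 6.13 against 1.17 and 0.753 (log2 -2.45, SE 0.56).

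Genes of metabolism moved in both directions, but not in the shares of all tested genes (25% higher and 28.1% lower). Glycolysis and sterol and fatty acid synthesis had more genes lower than higher, and autophagy had more higher than lower. Of 21 tested glycolysis genes, 3 were higher and 10 lower (median -0.97). Ldha, lactate dehydrogenase A, was at 284 and 414 TMM CPM in the GC pools and at 73 and 90.1 in the plasmablast pools (log2 -2.10, SE 0.30, edgeR adjusted p = 0.000109), while Pfkm, a phosphofructokinase, was higher, at 12.9 and 15.7 against 3.63 and 2.1. Of 30 genes of sterol and fatty acid synthesis, 5 were higher and 16 lower (median -0.68). Idi1 and Pmvk, enzymes of sterol synthesis, had log2 folds of -2.81 and -2.34. Ebp, a later enzyme of the same route, was higher, at 81.4 and 86.7 against 19.7 and 25.7 (log2 1.89, SE 0.25, edgeR adjusted p = 7.28e-05). Of 24 autophagy genes, 12 were higher and 3 lower (median 0.61), against 3 higher and 18 lower without scaling. Wipi1, which binds the forming autophagosome membrane, was at 0.14 and 0.322 against 58.6 and 66 (log2 8.07, SE 0.33, edgeR adjusted p = 8e-08). Gabarapl1, which coats that membrane, was at 1.12 and 1.77 against 10.3 and 12.6, whereas Optn, a receptor for autophagy cargo, was lower, at 1.53 and 2.64 against 52.7 and 27.5 in GC B cells.

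Of 14 Polycomb and DNA methylation genes, 2 were higher and 6 lower (median 0.06). Uhrf1, which guides methylation to copied DNA, was at 209 and 224 TMM CPM in the GC pools and at 6.74 and 6.4 in the plasmablast pools (log2 -5.04, SE 0.23, edgeR adjusted p = 8e-08). Dnmt1, the maintenance methyltransferase, was at 460 and 325 against 41 and 38.5 (log2 -3.30, SE 0.28). Ezh2, the histone methyltransferase needed for germinal centres, was at 157 and 131 against 15.2 and 15.6 (log2 -3.23, SE 0.21). Jarid2, a Polycomb cofactor, was higher, at 60.4 and 64.3 against 25.1 and 11.7 (log2 1.75, SE 0.32, edgeR adjusted p = 0.000754), and is -0.15 without scaling.

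Of 83 tested genes of cytosolic ribosomal proteins, 61 were lower and 1 was higher, but 8 passed the 2-fold test (median -1.12). Rpl39 was at 5.03 and 7.58 TMM CPM in the GC pools and at 0.629 and 1.76 in the plasmablast pools (log2 -2.46, SE 0.54, edgeR adjusted p = 0.00233). Rpsa, the laminin receptor protein of the small subunit, was at 46.5 and 73 against 12.5 and 17.6. Rps27l, a p53 target related to Rps27, was the member that was higher, at 107 and 162 against 34.9 and 60.1 (log2 1.50, SE 0.38, edgeR adjusted p = 0.00608). Rps27l did not pass without GC pool 1 or plasmablast pool 2 (edgeR adjusted p = 0.0538 to 0.0572) and is -0.39 without scaling. Ribosomal proteins have many processed copies in the genome, so their counts are uncertain. Proteasome subunits stayed near the typical gene, with 7 of 37 tested lower, 0 higher and 0 past the 2-fold test (median -0.24, edgeR's quasi-likelihood test), and without scaling all 37 were lower. Psmd14, a deubiquitinase of the proteasome cap, had the largest of these differences (log2 -1.14, SE 0.27). Of 77 tested nuclear genes of oxidative phosphorylation, 4 were higher and 9 lower (median -0.23). Cox6a2, a muscle type subunit of cytochrome oxidase, had 1 count in the GC pools together and 156 in the plasmablast pools, a ratio of 218 with a counting interval of 38.6 to 8675.

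Transcripts of the mitochondrial genome took 5.63% and 5.74% of counts outside the immunoglobulin genes in the GC pools and 5.13% and 2.36% in the plasmablast pools, so the plasmablast pools differed from each other more than pool 1 did from the GC pools. COX1 was at 11867 and 12929 TMM CPM against 13740 and 6010, and CYTB at 7420 and 8285 against 9569 and 4748, both with overlapping groups. The gene IDs 19791 and 100861531, which have no symbol in the annotation used, took 5.03% and 4.17% of the same counts in the GC pools and 0.248% and 0.448% in the plasmablast pools. Of 40 tested replication-dependent histone genes, 4 were higher and 15 lower (median -1.80). The summed share of the 62 listed genes went the other way. It was 0.00905 ± 0.000608% of counts outside the immunoglobulin genes in GC B cells and 0.0146 ± 0.00368% in plasmablasts (SD, n = 2 pools). H1f2, a linker histone, was at 68.1 and 102 in plasmablasts against 8.73 and 9.27 in GC B cells (log2 3.24, SE 0.26, edgeR adjusted p = 1.35e-06). Most histone messages lack a polyA tail, and the libraries were made from polyA RNA, so their levels are those of a minor form.

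Some of the largest folds outside the lists fell on genes with few described roles in B cells. Slc16a5, a carrier of the monocarboxylate family, had 0 counts in both GC pools and 964 in the plasmablast pools (49.9 and 51.2 TMM CPM), which is at least 450-fold higher against a floor of 3 counts over the GC group. Fut1, a fucosyltransferase, was at 0.21 and 0.161 TMM CPM in the GC pools and at 65.3 and 81.3 in the plasmablast pools (log2 8.56, SE 0.44, edgeR adjusted p = 1.03e-07). Hid1, a protein of secretory granules, was at 0.419 and 1.13 against 294 and 261 (log2 8.51, SE 0.45). Prlr, the prolactin receptor, had 3 counts in the GC pools together and 1214 in the plasmablast pools, a ratio of 566 with a counting interval of 193 to 2749. In the other direction, Emid1, a secreted matrix protein, was at 67.9 and 66.8 against 0.808 and 0.126 (log2 -7.01, SE 0.55). H1f10, a linker histone outside the replication-dependent clusters, was at 78.3 and 72.2 against 0 and 0.502 (log2 -8.42, SE 0.58). Actb, cytoskeletal actin often used as a reference gene, was at 4282 and 4211 against 648 and 980 (log2 -2.38, SE 0.35, edgeR adjusted p = 0.00013).

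Markers of T cells, of myeloid cells, and of NK and plasmacytoid dendritic cells summed to small shares in all 4 pools, at most 0.038%. Single genes among them, such as Bst2, were well measured in plasmablasts. T cell markers summed to 0.00139% and 0.00102% of counts outside the immunoglobulin genes in the GC pools and to 0.000611% and 0.000975% in the plasmablast pools, and of 7 tested 1 was higher and 1 lower. Myeloid markers summed to 0.00487% and 0.0012% in the GC pools and to 0.00876% and 0.00267% in the plasmablast pools, and 3 of 7 tested were higher. Csf1r, the macrophage growth factor receptor, was at 5.38 and 1.93 TMM CPM in the GC pools and at 38.3 and 9.29 in the plasmablast pools (log2 2.70, SE 0.82, edgeR adjusted p = 0.0161). Adgre1, which encodes F4/80, was at 1.75 and 1.45 against 13.9 and 2.38. Both were highest in plasmablast pool 1 and neither passed without it (adjusted p up to 0.242 and 0.625 over the edgeR and limma settings that lost them), while the myeloid genes Cd14, Mpo and Elane were too low to be tested. NK and plasmacytoid dendritic markers summed to 0.00223% and 0.00216% in the GC pools and to 0.023% and 0.038% in the plasmablast pools, with 2 of 6 tested higher. Bst2, a tetherin that plasma cells also express, was at 11.7 and 12.2 against 175 and 300, and Prf1, perforin, was at 0.279 and 0.564 against 2.96 and 2.38. Naive follicular B cell markers held more, 0.0742% and 0.0595% in the GC pools and 0.00891% and 0.0285% in the plasmablast pools, and 4 of 7 were lower and 0 higher (median -1.85, edgeR's quasi-likelihood test). The 4 were Fcer2a, Ccr7, Cr2 and Klf2, so Fcer2a and Ccr7 above are also genes of naive cells. The part of such cells in the differences above was not tested.

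Sex differed between the pools, with no male mouse in GC pool 2. Xist, which is transcribed from the inactive X chromosome of females, was at 501 and 279 TMM CPM in the GC pools and at 12.3 and 27.1 in the plasmablast pools (log2 -4.32, SE 1.03, edgeR adjusted p = 0.00403). The 4 Y-linked genes tested did not pass, but they were not level between the groups. Over these genes and Xist the median log2 fold was 3.09 and the largest was 3.48, toward plasmablasts. Xist was thus lower in both plasmablast pools than in either GC pool, although each held 3 or 4 females among 6 or 7 mice. It did not pass with the date as a block (edgeR adjusted p = 0.0559).

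GC B cells of the Moz control group, taken on day 7 after immunisation from mice with 1 copy of a cre transgene other than CD23-cre and no floxed allele in their label, gave a second reference for germinal centre levels. The authors made these libraries in another experiment, so the values are set side by side with no test. Prdm1 was at 12.2 ± 1.65 TMM CPM there, Sdc1 at 20.3 ± 5.81, Fkbp11 at 21.1 ± 6.83 and Jchain at 4296 ± 128 (SD, n = 2 pools), each between the day 12 GC pools and the plasmablasts of the Myb control. Pax5 was at 239 ± 10.7 and Mcm5 at 522 ± 114. Both means lay a little below the day 12 GC pools and far above the plasmablast pools. Hspa5 was at 816 ± 217 and Ighm at 14090 ± 284.

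The same contrast could be taken in the 4 Myb knockout libraries (Myb fl/fl with CD23-cre, 2 pools of each cell type), which share no library with the control contrast. They do share its dates and its fit, so cell type, date, boost and time after antigen cannot be told apart in the knockout contrast either. CD23-cre deletes in mature B cells. There 3203 genes (24.4%) were higher and 3567 (27.2%) lower in plasmablasts, 1867 (14.2%) and 1620 (12.3%) past the 2-fold test. Of the genes higher in the control contrast, 2930 were also higher in the knockout (89.1% of the control list and 91.5% of the knockout list), and 3166 were lower in both (85.7% and 88.8%). In the opposite direction 0 genes were called, by edgeR's quasi-likelihood test. Prdm1 had a log2 fold of 3.77 in the knockout, Xbp1 4.70, Bhlha15 5.69, Pax5 -6.75 and Hspa5 3.55. ER folding genes were higher for 37 of 37 members, and DNA replication genes lower for 39 of 39, in the knockout contrast.

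A test of the difference between these 2 contrasts called 1 gene of 13131 (0.00762%), with 0 called in the other direction by edgeR's quasi-likelihood test. This count depends on the model. Control and knockout pools of a cell type with the same number share their dates in the labels, and with the number as a block edgeR called 25 genes in this direction and 4 in the other, or 63 and 8 with the date as a block. DESeq2 called 37 and 8, and edgeR without a low-count filter 123 and 13, while limma and the fit of the 8 Myb libraries alone called 0 in this direction. The 1 gene was Faxc, a homolog of a fly gene for axon connections, chosen for description after its value was seen. Faxc was at 0.14 and 0.0806 TMM CPM (2 and 1 counts) in the control GC pools and at 48.1 and 35.4 in the control plasmablast pools. In the knockout it was at 1.39 and 1.57 in GC B cells and at 15.2 and 15.1 in plasmablasts. It was higher in plasmablasts in all pools of both genotypes, and the control pools lay outside the knockout pools in both cell types. The difference between the contrasts was 5.10 on the log2 scale (SE 0.54, edgeR adjusted p = 0.0145). It did not pass when any of 6 of the 8 libraries was left out (edgeR adjusted p = 0.0544 to 0.219).

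**Figure D5:**
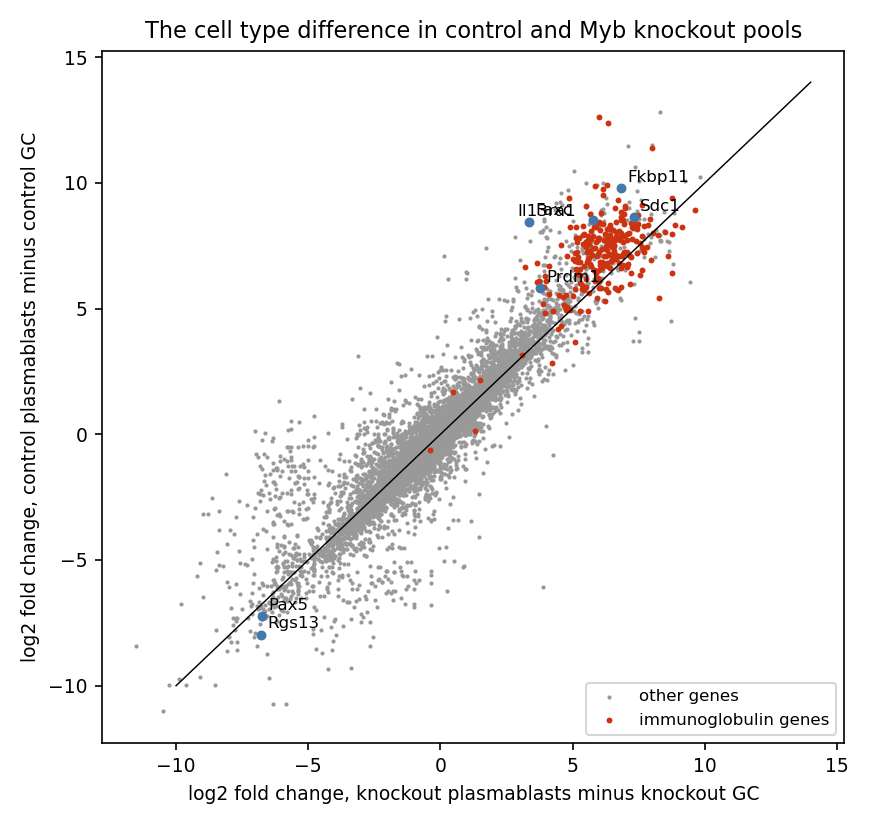
Log2 fold change in control pools (y axis) against that in Myb knockout pools (x axis), plasmablasts minus germinal centre B cells in each, for all 13131 tested genes. Red points are immunoglobulin genes, blue points are 7 named genes, and the line marks equal folds. Faxc, at 8.46 in control and 3.35 in knockout pools, is the gene whose difference passed in the fit without a block.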

How the data were processed

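The authors deposited whole-number counts for 27179 Entrez gene IDs. The submitters' processing notes name featureCounts and mm10. Aligner and strand setting: not given in the sources used here, so overlapping and antisense genes cannot be told apart. Counts in the per-library tables and the series table differed in 0 values. RefSeq names (GRCm38.p6) were found for 25275 IDs, 260 of them immunoglobulin genes.

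Counts passing filterByExpr (minimum 10, total 15) were scaled by TMM and fitted in edgeR 4.0.16 (R 4.3.3) with 6 group means over all 12 libraries (6 residual degrees of freedom, robust quasi-likelihood test, glmTreat for the 2-fold limit), which share one estimate of the spread. The common dispersion was 0.0486. The 2 pools of a group were separate libraries, with a chi-square over its degrees of freedom of 28.2 in GC B cells and 86 in plasmablasts. With 2 pools against 2 the smallest exact permutation p is 0.333, so single shares were not tested. By the labels' dates, same-numbered control and knockout pools of a cell type are paired (correlation of deviations 0.6 in GC B cells and 0.453 in plasmablasts), and plasmablast and GC pools are not. The fit was also run on simulated counts in which both control cell types shared a base profile, apart from a set of changed genes. Such counts lack the immunoglobulin difference between these cell types, so the run does not test the scaling of this contrast.

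The members and the 40 gene lists were chosen with earlier results of these data known. Genes were named by a rule: the 8 largest folds in each direction with a mean of at least 50 TMM CPM and groups that do not overlap (antigen receptor segments, sex-linked Xist and Y genes, and provisional symbols left out), the 3 furthest called members of each list and the furthest opposite one, a set of identity genes, the 10 most abundant genes of each cell type, and members with narrow intervals that did not pass. A selection of these is described. Alternatives were other scalings, DESeq2 1.42.0, limma 3.58.1, other filters, the compared groups alone, replicate blocks, leaving out immunoglobulin genes and leaving out each pool. Protein C termini were not analysed here.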

Additional observations from a re-analysis of the deposited data

Results flagged for a closer look

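The plasmablast against germinal centre difference of Faxc differed between control and Myb knockout pools by 5.10 on the log2 scale, by a test of the difference itself in edgeR. In the control GC pools it rests on 2 and 1 counts, against 536 and 282 in the control plasmablast pools, a ratio of 381 with a counting interval of 130 to 1854. Its edgeR, DESeq2 or limma adjusted p ranged from 8.16e-11 without a low-count filter to 0.297 in limma.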

How the results depend on the processing

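Without scaling beyond the library total, 1108 genes were higher and 9877 lower in control plasmablasts (820 and 8402 past the 2-fold test), and 884 and 10394 in the knockout contrast. The log2 folds of Zbtb20 (-1.50), Tcf12 (-0.34), Cd81 (-0.67), Dnajc10 (-1.37), Eif2ak3 (-1.48), Cxcr4 (-1.42), Mcl1 (-0.89), Pttg1 (-1.76), Jarid2 (-0.15) and Rps27l (-0.39) changed sign, because that setting lowers the median gene to -2.04. DESeq2 put 1123 genes past the 2-fold test on the lower side, and the cause was not tested. Leaving out 1 pool gave 2758 to 2937 genes higher and 2795 to 3229 lower. Of the 1995 genes past the 2-fold test on the higher side, 984 (49.3%) were called in all 14 settings other than no scaling, and of the 1725 on the lower side 964 (55.9%). Replicate number does not mark a shared date between the cell types (correlation of deviations in control pools 0.247); the number as a block gave 3853 higher and 4507 lower, and the date within cell type as a block 4108 and 4793. Genes that differed between genotypes numbered 37 higher and 8 lower in DESeq2, 123 and 13 without a low-count filter, 25 and 4 with the number block, 63 and 8 with the date block, 0 higher with the compared groups alone and 0 in limma, and 0 to 1 higher and 0 to 2 lower on leaving out a pool; the cause was not tested. Constant genes alone held 52% of plasmablast and 1.33% of GC counts, since variable segments are then left out. Over 2089 values of 150 genes chosen for description under settings other than no scaling, 2058 kept direction and call, 14 lost the call (in Adgre1, Cd27, Csf1r, Mki67, Rps27l and Xist), 17 gained it and 0 changed sign. Depth limits genes near 3 counts in the GC libraries.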
